A study of Rattus norvegicus with 13 samples.

Results

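The genes described here are 9 that are followed in injured neurons: the axon growth and injury genes Gap43, Atf3, Jun, Sprr1a, Stmn2 and Stmn4, and the tau and amyloid genes Mapt, App and Bace1. They were chosen by name, and a probe counted as a member when the gene name on the array equalled 1 of the 9. That rule found 8 of the 9 genes on the array, with 10 probes, among 17244 genes measured above background. No probe carried the name Sprr1a, so that gene has no value here. The tissue was frontal cortex, taken 1 month after surgery from Sprague-Dawley males, and each rat was hybridised to its own 1-colour Agilent array. The 4 groups were rotational trauma, in which the head is rapidly rotated (n = 3), rotational sham (n = 3), percussion trauma, in which a fluid pulse strikes the side of the brain (n = 3), and percussion sham (n = 4). Sham rats had the anaesthesia and the surgery without the trauma. All rotational arrays were on 1 slide and all percussion arrays on another, so the 2 models and the 2 slides coincide and cannot be told apart, whereas each trauma group shared a slide with its own sham. On each slide trauma and sham arrays also lay in different columns, so column and trauma cannot be told apart within a model. The column order of trauma and sham was opposite on the 2 slides, so column also enters the difference between the models.

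Neurons whose axons are damaged can switch on a growth programme. The stress kinase JNK phosphorylates the transcription factor Jun, Atf3 is induced and pairs with it, and growth cone proteins such as Gap43 and the stathmins follow. This programme is strong in peripheral neurons and in axotomised motor neurons, and much weaker in cortical neurons with long central axons. The amyloid precursor protein travels by fast axonal transport and piles up where axons are damaged, which is why pathologists stain for it after head injury. Tau, the product of Mapt, binds axonal microtubules and becomes detached and phosphorylated in chronic injury. Both of those changes concern protein, whereas the arrays measured RNA.

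The probes whose readings the results rest on are shown with their rn4 positions as the array annotation gives them, 5′ to 3′, for the 7 genes whose chosen probe was judged to lie in coding sequence. Capitals in the App probe mark the stop codon, and the bases past it are left out. Capitals in the Stmn2 and Stmn4 probes mark the longest run of letters that they share, 10 bases. It lies near the start of the Stmn2 probe and at the end of the Stmn4 probe.
Gap43, chr11:60083320-60083379, plus strand: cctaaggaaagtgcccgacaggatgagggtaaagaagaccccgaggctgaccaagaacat
Jun, chr5:115359410-115359469, minus strand: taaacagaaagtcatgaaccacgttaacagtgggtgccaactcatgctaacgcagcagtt
Stmn2, chr2:95290726-95290785, minus strand: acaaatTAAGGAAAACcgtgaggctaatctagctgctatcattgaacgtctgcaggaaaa
Stmn4, chr15:45794337-45794396, plus strand: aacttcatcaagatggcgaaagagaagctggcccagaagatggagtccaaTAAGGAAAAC
Mapt, chr10:93504770-93504829, plus strand: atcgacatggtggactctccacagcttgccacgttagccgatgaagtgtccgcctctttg
App, chr11:24457855-24457914, minus strand: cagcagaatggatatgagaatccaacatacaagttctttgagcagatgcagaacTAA
Bace1, chr8:48836292-48836351, plus strand: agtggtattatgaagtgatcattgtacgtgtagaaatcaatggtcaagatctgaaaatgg
The App probe reads the end of the open reading frame, which encodes the cytoplasmic tail, and the Mapt probe reads near the end of the tau coding sequence. Mapt and Stmn2 each had a second, dimmer probe.

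Values are log2 signals after subtraction of each array's 75th percentile, called the scaled log2 signal here, so that 0 is the 75th percentile spot of that array. Between 67.0% and 74.1% of spots per array were well above background, no spot was saturated, and all 10 member probes were well above background on all 13 arrays. The small number of arrays limits the precision, and the dim genes Bace1 and Atf3 also had a wider scatter between spots, given below. The 4 of 5 cerebral cortex markers on the array were above background on all 13 arrays (Cux2 had no probe). Markers of the meninges, the membranes over the cortex, stood apart: their mean difference from own sham lay between 0.73 and 1.81 on rotational trauma arrays, against -0.33 to 0.42 on rotational sham arrays, and between 0.81 and 2.13 on percussion trauma arrays, against -0.61 to 0.47 on percussion sham arrays. No gene of the other lists passed in either model: medians in rotational and percussion trauma were -0.04 and 0.08 for astrocytes, -0.19 and -0.04 for microglia, 0.41 and -0.01 for oligodendrocytes, -0.06 and 0.17 for endothelium, -0.06 and 0.02 for cortex, and -0.31 and -0.37 for erythrocytes (2 of 4 markers measured). Schwann cells had 1 of 3 markers measured, at 0.53 and 0.95, and the striatum markers were at -0.70 and -0.07. All 7 meninges markers were above 0 in both models and 0 of 7 passed the test in either. The mean of the 7 neuron markers lay between -0.09 and -0.02 on rotational trauma arrays, against -0.03 to 0.06 on rotational sham arrays, and between -0.15 and -0.02 on percussion trauma arrays, against -0.06 to 0.06 on percussion sham arrays. Single neuron markers differed from own sham by -0.20 to 0.12 in rotational trauma and by -0.50 to 0.09 in percussion trauma, and 0 of 7 passed limma's adjusted test in either, with 0 and 2 at an unadjusted p below 0.05. The part of either in the results that follow was not tested, and in bulk tissue fewer cells of a type and less RNA per cell cannot be told apart.

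At 1 month none of the 8 genes passed the test of trauma against own sham in either model. The differences between trauma and own sham ran from -0.16 to 0.21 on the log2 scale in the rotational model and from -0.16 to 0.17 in the percussion model. The 8 genes are taken in turn below, growth and injury genes first.

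Gap43 encodes a growth cone membrane protein that is also kept at presynaptic endings in adult cortex. Its scaled log2 signal was 4.22, 4.16 and 4.17 on the 3 rotational trauma arrays, against 4.29, 4.20 and 4.23 on the rotational sham arrays. The groups overlapped, and the fitted difference was -0.06 (SE 0.08, 95% confidence interval -0.24 to 0.12, limma adjusted p = 0.979). Gap43 read 3.73, 4.06 and 4.01 on percussion trauma arrays, against 3.98 to 4.04 on the 4 percussion sham arrays, with a median of 4.02. Percussion trauma array 1 alone was below all shams, and the difference was -0.08 (SE 0.08, interval -0.25 to 0.09, limma adjusted p = 0.731). Without that array it was 0.02.

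Stmn2 and Stmn4 encode stathmins of neurons, proteins that bind tubulin and are concentrated in growing axons. Stmn2 read 4.29, 4.14 and 4.60 on rotational trauma arrays, against 4.30, 4.26 and 4.30 on rotational sham arrays. The trauma arrays lay on both sides of the tight sham group, and the difference was 0.05 (SE 0.12, limma adjusted p = 0.991). On the percussion slide Stmn2 read 3.98, 4.21 and 4.32 on trauma arrays, against 4.13, 4.33, 4.29 and 4.21 on sham arrays, a difference of -0.07 (SE 0.11, limma adjusted p = 0.844). The second Stmn2 probe gave 0.02 in the rotational model and -0.03 in the percussion model.

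Stmn4 showed the widest single departure among the brighter genes. It read 2.54, 2.56 and 1.71 on rotational trauma arrays, against 2.50, 2.39 and 2.40 on rotational sham arrays. Rotational trauma arrays 1 and 2 were above every sham and array 3 was far below, so the fitted difference of -0.16 (SE 0.21, interval -0.62 to 0.29, limma adjusted p = 0.968) rested on array 3 and was 0.12 without it. On the percussion slide Stmn4 read 2.22, 2.44 and 1.99 on trauma arrays, against 2.08, 2.35, 2.54 and 2.42 on sham arrays. The groups overlapped, with a difference of -0.13 (SE 0.20, limma adjusted p = 0.839).

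Jun encodes the AP-1 transcription factor that JNK activates after axon damage. It read 0.64, 0.94 and 0.97 on rotational trauma arrays, against 0.83, 0.94 and 0.86 on rotational sham arrays, a difference of -0.03 (SE 0.12, limma adjusted p = 0.997). In the percussion model it read 0.65, 0.68 and 1.01 on trauma arrays, against 0.91, 1.00, 0.84 and 0.75 on sham arrays, a difference of -0.10 (SE 0.11, limma adjusted p = 0.773). In percussion trauma 2 arrays lay below all shams and the third lay above them.

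Atf3 encodes a stress-induced transcription factor that is nearly silent in uninjured neurons. It read -4.42, -5.45 and -4.43 on rotational trauma arrays, against -4.63, -5.24 and -5.07 on rotational sham arrays. The difference was 0.21 (SE 0.50, interval -0.89 to 1.31, limma adjusted p = 0.994), so a fold change anywhere from 0.54 to 2.48 lay inside the interval. On the percussion slide Atf3 read -3.35, -4.55 and -5.03 on trauma arrays, against -3.33, -3.92, -4.86 and -4.93 on sham arrays. The highest trauma and the highest sham array were nearly equal, and the difference was -0.05 (SE 0.47, interval -1.08 to 0.98, limma adjusted p = 0.98). A rise of Atf3 in a small share of cells was not detectable with this spread.

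The array has a probe named Sprr1al, a name that the RefSeq gene table lists as a synonym of Sprr1a, a small proline-rich protein induced in regenerating peripheral neurons. It lies outside the rule and was looked at after the data were seen. It read -3.43, -3.18 and -3.82 on rotational trauma arrays, against -3.29, -2.55 and -2.96 on rotational sham arrays. The difference was -0.55 (SE 0.24, interval -1.08 to -0.01, limma unadjusted p = 0.0457, limma adjusted p = 0.714 over 20004 probes). Percussion trauma arrays read -3.79, -3.93 and -3.10, against -3.94, -3.54, -3.70 and -3.69 on percussion sham arrays, a difference of 0.11 (SE 0.23, limma adjusted p = 0.889). Percussion sham minus rotational sham was -0.79 for this probe (SE 0.23, limma adjusted p = 0.0299 over probes), where slide and surgery cannot be told apart.

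**Figure D1:**
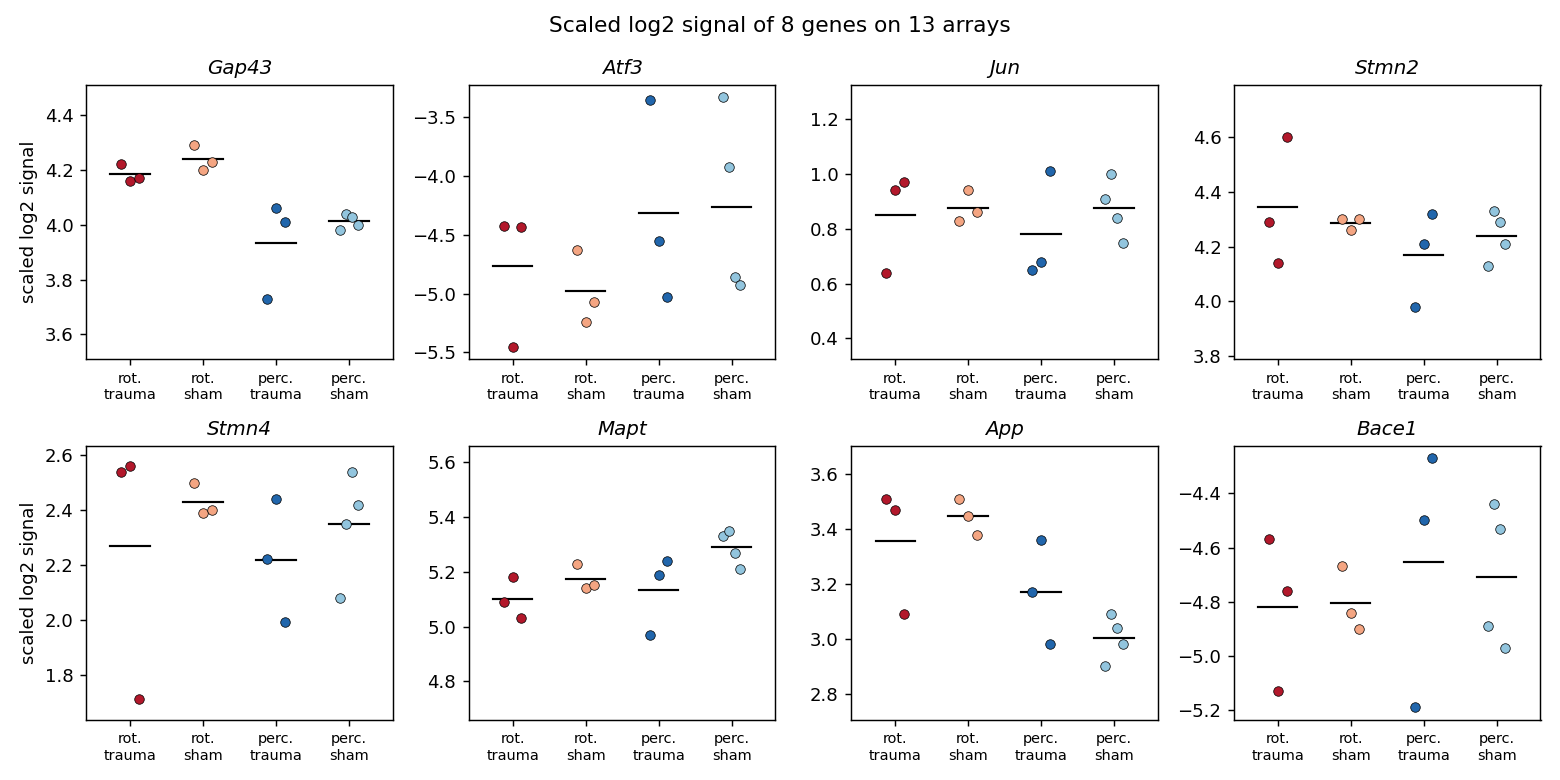
Scaled log2 signal (vertical axis) of the 8 genes on each of the 13 arrays by group; points are arrays, lines are group means, and each panel spans at least 1 log2 unit with its own scale. Rotational trauma array 3 is the lowest array of the rotational model in Stmn4 (1.71) and App (3.09), and percussion trauma array 1 is the lowest of the percussion model in Gap43 (3.73) and Mapt (4.97).

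Of the tau and amyloid genes, Mapt had the narrowest spread. It read 5.09, 5.18 and 5.03 on rotational trauma arrays, against 5.23, 5.14 and 5.15 on rotational sham arrays, a difference of -0.08 (SE 0.08, interval -0.25 to 0.10, limma adjusted p = 0.956). In the percussion model it read 4.97, 5.19 and 5.24 on trauma arrays, against 5.33, 5.35, 5.27 and 5.21 on sham arrays. Trauma arrays 1 and 2 were below all 4 shams and array 3 was between them. The difference was -0.16 (SE 0.08, interval -0.32 to 0.01, unadjusted p = 0.0635, limma adjusted p = 0.465). The second Mapt probe went the other way in the percussion model: it read 4.38, 4.69 and 4.55 on trauma arrays, against 4.40, 4.54, 4.57 and 4.39 on sham arrays, a difference of 0.06 (SE 0.11, limma adjusted p = 0.864 over probes).

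App, the amyloid precursor protein gene, read 3.51, 3.47 and 3.09 on rotational trauma arrays, against 3.51, 3.45 and 3.38 on rotational sham arrays. The first pair of trauma arrays lay within or at the edge of the shams and array 3 was below them, and the difference of -0.09 (SE 0.12, interval -0.36 to 0.18, limma adjusted p = 0.972) was 0.04 without array 3. Percussion trauma arrays read 3.17, 3.36 and 2.98, against 2.90, 3.09, 3.04 and 2.98 on percussion sham arrays. Trauma arrays 1 and 2 were above every sham and array 3 was level with the third highest, with a difference of 0.17 (SE 0.11, interval -0.08 to 0.42, limma adjusted p = 0.593).

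Bace1 encodes the beta-secretase that makes the first cut of the amyloid precursor protein on the way to amyloid beta. It read -4.57, -5.13 and -4.76 on rotational trauma arrays, against -4.67, -4.84 and -4.90 on rotational sham arrays, a difference of -0.02 (SE 0.23, interval -0.52 to 0.49, limma adjusted p = 0.998). In the percussion model it read -5.19, -4.50 and -4.27 on trauma arrays, against -4.89, -4.44, -4.53 and -4.97 on sham arrays. The trauma arrays spanned the whole sham range, with a difference of 0.05 (SE 0.22, interval -0.42 to 0.52, limma adjusted p = 0.948).

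In counts, 0 of 8 genes passed an adjusted p of 0.05 in the rotational model, where 0.0116% of all genes did (2 of 17244). In the percussion model 0 of 8 passed, beside 0% of all genes. There 0 of 17244 genes passed limma's adjusted test, while 1945 (11.3%) had an unadjusted p below 0.05, and none of those were among the 8. The 8 genes' trauma and sham arrays overlapped in every case. For all genes with a value on every array the groups did not overlap for 15.5% in the rotational model and 9.73% in the percussion model. With so few genes called at all, a count of 0 of 8 is near the background and is no result about these genes; their intervals say more. The upper bound of the interval was at most 1.24-fold for Gap43, Jun, Stmn2, Stmn4 and Mapt in both models: 1.09-fold, 1.17-fold, 1.24-fold, 1.23-fold and 1.07-fold in rotational trauma and 1.06-fold, 1.1-fold, 1.13-fold, 1.23-fold and 1.01-fold in percussion trauma. The lowest of their lower bounds were those of Stmn4, 0.649-fold in rotational and 0.679-fold in percussion trauma. The Mapt bounds are those of its brighter probe. Its dimmer probe had a log2 interval of -0.18 to 0.31 in percussion trauma, so the bound of 1.01-fold holds for 1 probe only. For App, Bace1 and Atf3 the upper bounds were 1.13-fold, 1.41-fold and 2.48-fold in rotational trauma. In percussion trauma they were 1.34-fold, 1.44-fold and 1.97-fold.

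The mean of both trauma effects and the difference between the models gave 0 of 8 genes as well, beside 0% of all genes for each (0 of 17244 by limma's adjusted test, with 1538 genes, 8.92%, and 1476 genes, 8.56%, at an unadjusted p below 0.05). The largest model difference in size among the 8 was a tie at 2 decimals: App with 0.26 (SE 0.17, interval -0.11 to 0.63, limma adjusted p = 0.716), and Atf3 with -0.26 (SE 0.69, interval -1.76 to 1.25). Both intervals include 0, and the opposite column order of the slides enters this comparison.

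**Figure D2:**
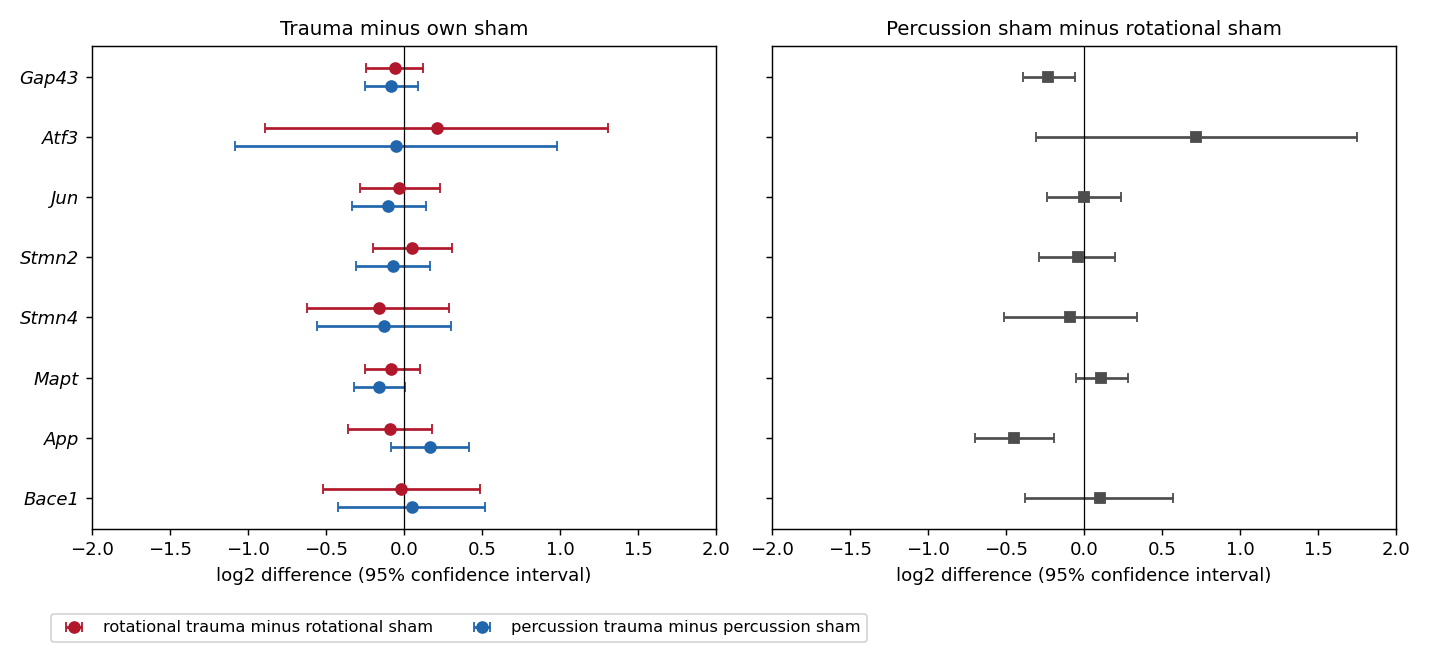
Fitted log2 difference (horizontal axis) with its 95% confidence interval for each gene; left, trauma minus own sham in the rotational (red) and percussion (blue) models; right, percussion sham minus rotational sham. All 16 intervals on the left include 0, and those of Gap43 and App on the right do not.

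To set the growth genes against the tau and amyloid genes, each array's difference from the mean of its own sham was averaged over Gap43, Atf3, Jun, Stmn2 and Stmn4 and over Mapt, App and Bace1. This contrast is a description with no test. Growth genes minus tau and amyloid genes came to 0.01, 0.00 and 0.18 on rotational trauma arrays, against 0.00, -0.04 and 0.04 on rotational sham arrays. It came to 0.21, -0.23 and -0.30 on percussion trauma arrays, against 0.19, -0.02, -0.14 and -0.03 on percussion sham arrays. The mean was 0.06 ± 0.10 for rotational trauma (SD, n = 3) and 0.00 ± 0.04 for rotational sham (SD, n = 3). It was -0.11 ± 0.28 for percussion trauma (SD, n = 3) and 0.00 ± 0.14 for percussion sham (SD, n = 4). The rotational trauma mean lay above its sham arrays, which ran from -0.04 to 0.04, and the percussion trauma mean lay within the range of its sham arrays, -0.14 to 0.19. Rotational trauma array 3 decided the rotational value, which was 0.00 without it, and percussion trauma array 1 moved the percussion value to -0.27 when left out. The noisy Atf3 enters this mean with the same weight as the others: on percussion trauma array 1 it stood at 0.91 above its sham mean while Gap43, Jun, Stmn2 and Stmn4 stood at -0.28, -0.22, -0.26 and -0.13.

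**Figure D3:**
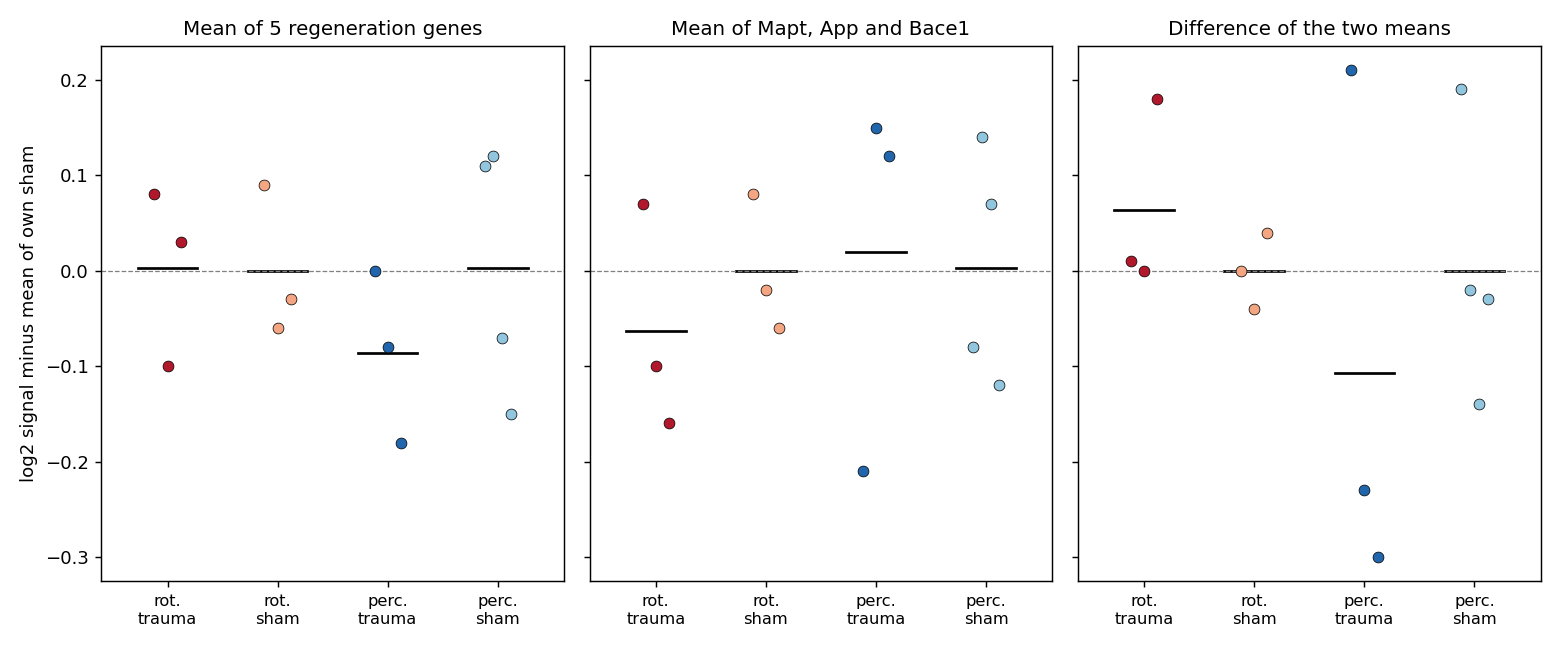
Mean difference from own sham (log2, vertical axis) of the 5 growth genes, of Mapt, App and Bace1, and of the first minus the second, on each array; points are arrays and lines are group means. The percussion trauma arrays fall on both sides of 0 in the right panel, at 0.21, -0.23 and -0.30.

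The trauma arrays were more scattered than their shams. The SD among arrays was larger in rotational trauma than in rotational sham for 7 of 8 genes, Gap43 being the exception, and larger in percussion trauma than in percussion sham for 8 of 8. Over all genes the same held for 63.6% and 56.9%. With 3 or 4 arrays a group this is a description. Stmn4 had an SD of 0.49 in rotational trauma against 0.06 in rotational sham, and Gap43 had 0.18 in percussion trauma against 0.03 in percussion sham.

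Precision differed widely among the 8. The residual SD, the scatter of arrays about their group means, was 0.09 for Gap43 and for Mapt, at the 16.7th and 15.9th percentile of all genes, 0.14 for Jun, 0.15 for Stmn2 and for App, 0.28 for Stmn4, 0.31 for Bace1 and 0.68 for Atf3. The median over all genes was 0.15, and Atf3 exceeded 97.7% of genes. The SD of a single spot was estimated from the 2 spots of a probe on the same array. It was 0.02 to 0.06 for the 6 brighter genes, but 0.24 for Bace1 and 0.21 for Atf3. Bace1 and Atf3 were the only members with so wide a scatter between spots.

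The comparison of the shams shows what else separated the slides. App was lower in percussion sham, which averaged 3.00 ± 0.08 (SD, n = 4), than in rotational sham, which averaged 3.45 ± 0.07 (SD, n = 3), and the groups did not overlap. The difference was -0.45 (SE 0.11, interval -0.70 to -0.19, limma adjusted p = 0.0188), or 0.735-fold. Gap43 averaged 4.01 ± 0.03 in percussion sham (SD, n = 4) and 4.24 ± 0.05 in rotational sham (SD, n = 3) with no overlap, a difference of -0.23 (SE 0.08, limma adjusted p = 0.052) that did not pass. The other 6 differed by -0.09 to 0.72, and 0.72 was Atf3 (SE 0.47, limma adjusted p = 0.279). So 1 of 8 genes passed, beside 23.7% of all genes (4090 of 17244), and 2 of 8 did not overlap, beside 41.7% of all genes. Neither share sets these genes apart. The sham difference cannot be told apart from slide, scan or surgery, and it was larger in size than the trauma differences of App, -0.09 in the rotational and 0.17 in the percussion model. The App call was lost without rotational sham array 1 (-0.41, limma adjusted p = 0.0669) or array 2 (-0.44, limma adjusted p = 0.0543). Markers of the striatum, the region beneath the frontal cortex, were also lower in percussion sham relative to rotational sham. There 7 of 7 were below 0, with a median of -0.97 and 3 passing. Their mean scaled log2 signal overlapped, at -1.75 to -1.64 on percussion sham arrays and -1.67 to 0.26 on rotational sham arrays. Rotational sham array 2 was the lowest of its group in these markers, and App read 3.45 there. Endothelium markers were below 0 for 4 of 4, with a median of -0.39 and 1 passing. The part of either marker list in the App difference was not tested.

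Lists of related genes gave the pathway around these members. Other genes of axon regeneration included Sox11, Klf6, Gal, Hspb1 and Stat3. Of 23 measured, 0 passed in rotational trauma and 0 in percussion trauma, with medians of 0.02 and 0.00 beside -0.03 and 0.01 for all genes. Gal, a neuropeptide that injured neurons induce, had the widest rotational difference at 0.95 (SE 0.47, limma adjusted p = 0.761), with its 3 trauma arrays at -0.50, -2.08 and -0.45, against -1.22, -3.05 and -1.63 in rotational sham. Dpysl3, a growth cone protein of the collapsin response mediator family, differed by 0.38 in the percussion model (SE 0.10, unadjusted p = 0.00374, limma adjusted p = 0.253), at -3.02, -2.76 and -2.66 on trauma arrays, against -3.17, -3.10, -3.21 and -3.28 on sham arrays. Those groups did not overlap, and neither did those of Stat3, a cytokine-activated transcription factor (0.31, SE 0.09, limma adjusted p = 0.263). Cd44, a hyaluronan receptor that glia also express, was at 0.58 (SE 0.21, limma adjusted p = 0.354).

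Among 16 genes of JNK and AP-1 stress signalling, 0 passed in either model, with medians of -0.08 in rotational trauma and -0.01 in percussion trauma. Junb, an AP-1 partner of Jun and an activity-regulated gene, read 2.74, 2.13 and 2.00 on percussion trauma arrays, against 3.40, 3.20, 2.70 and 2.48 on percussion sham arrays, a difference of -0.65 (SE 0.25, limma adjusted p = 0.367). Between the shams Junb was the gene that stood farthest apart in that list: it was 1.63 higher in percussion sham (SE 0.25, limma adjusted p = 0.00218), while Jun differed by 0.00. Nmnat2, an enzyme whose loss starts axon degeneration, was at 0.18 in rotational trauma (SE 0.08, limma adjusted p = 0.711) and -0.18 in percussion trauma (SE 0.08, limma adjusted p = 0.407).

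The 19 tau kinases, phosphatases and other microtubule-associated proteins gave 0 calls in either model, with medians of -0.02 in rotational trauma and 0.01 in percussion trauma. Mark4, a kinase of tau and related proteins, differed by 0.47 in the percussion model (SE 0.15, limma adjusted p = 0.309), at -2.33, -2.25 and -2.50 on trauma arrays, against -2.85, -2.77, -2.90 and -2.80 on sham arrays, with no overlap. Between the shams Mark4 was lower in percussion sham, with a difference of -0.47 (SE 0.15, limma adjusted p = 0.0459).

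The 23 genes of the amyloid precursor family and its processing gave 0 calls in either model, with medians of 0.04 in rotational trauma and 0.06 in percussion trauma. In rotational trauma 14 of 23 were above 0, beside 39.8% of all genes, and in percussion trauma 16 of 23, beside 52.7%. In the same order of models, 12 and 11 of 23 regeneration genes were above 0. For JNK and AP-1 signalling it was 6 and 8 of 16, and for the tau kinase list 7 and 10 of 19. These signs were not tested. Apba3, an adaptor that binds the tail of the amyloid precursor protein, differed by 0.26 in the percussion model (SE 0.07, limma adjusted p = 0.263). Lrp1, a receptor that takes up the precursor and apolipoprotein E, differed by 0.39 (SE 0.14, limma adjusted p = 0.34), and Ncstn, the nicastrin subunit of gamma-secretase, by 0.19 (SE 0.07, limma adjusted p = 0.362). In the rotational model Itm2c, which encodes a membrane protein that can bind the precursor, was at -0.43 (SE 0.24, limma adjusted p = 0.797).

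Between the shams these lists held 5 of 23, 2 of 16, 2 of 19 and 4 of 23 called genes, beside 23.7% of all genes. The regeneration genes called were Ecel1, L1cam, Gadd45a and Stmn1, which fell in percussion sham relative to rotational sham by 1.31, 0.65, 0.24 and 0.27, and Hspb1, which was 1.03 higher. Apbb1, Ncstn and Lrp1 fell by 0.33, 0.22 and 0.42 and Apba3 was 0.26 higher, and Map1b, Mark4 and Mapk9 fell by 0.56, 0.47 and 0.30. Of these 13 called genes, counting Junb, Junb alone kept its call under all 27 alternatives. Without rotational sham array 1, 2 or 3 the calls of 11, 10 and 12 of them were lost, and without percussion sham array 1, 2, 3 or 4 those of 11, 8, 7 and 9.

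**Figure D4:**
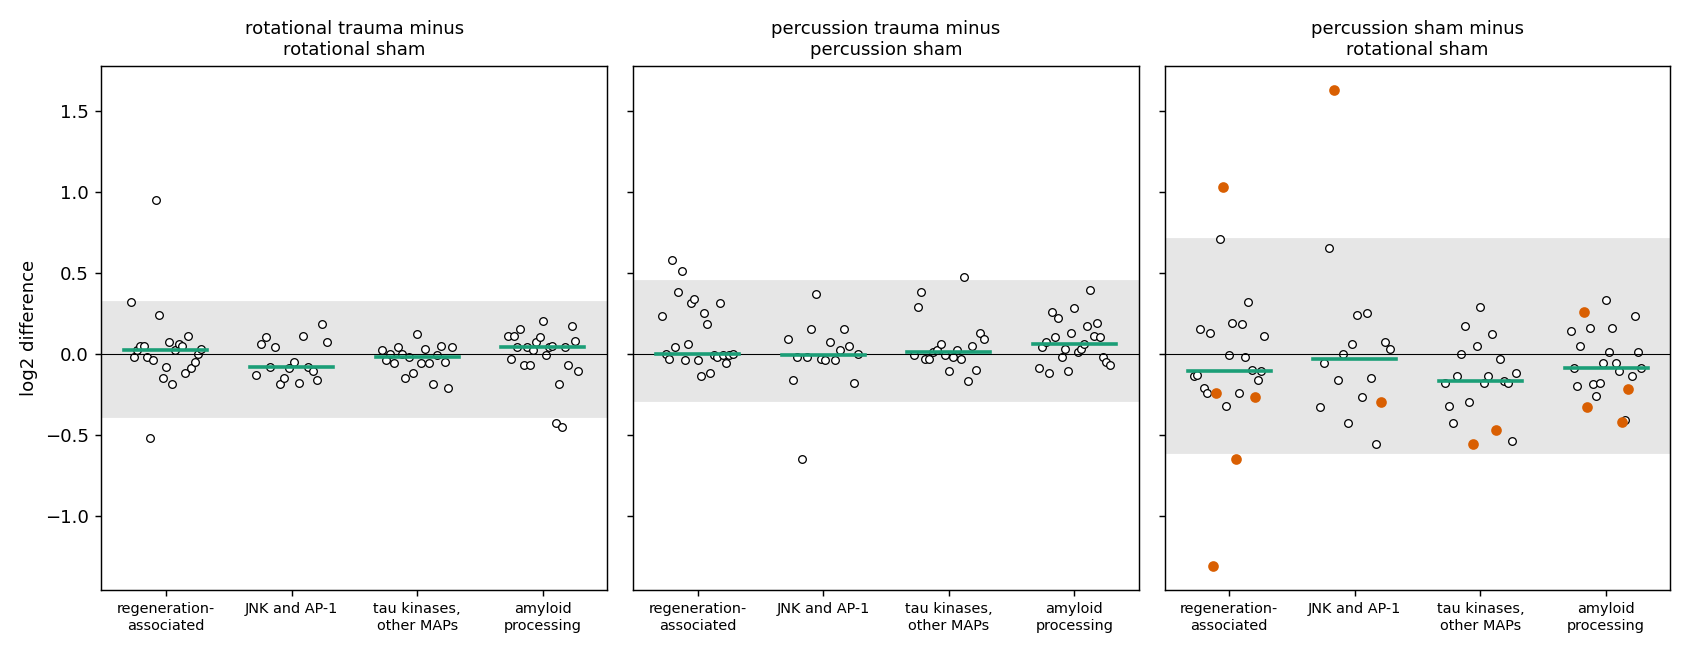
Log2 difference (vertical axis) of each gene of the 4 lists in the 3 comparisons; points are genes, filled where the adjusted p was below 0.05, green lines are list medians and the grey band holds the 5th to 95th percentile of all genes. No point is filled in the trauma panels, and 13 are in the sham panel.

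The 8 genes did not vary as 1 block from array to array. After each slide's mean was removed, Pearson's r over the 13 arrays was highest for Gap43 with Mapt at 0.78, Stmn4 with App at 0.74 and Gap43 with Bace1 at 0.72, and lowest for Jun with App at -0.57. These pairs join a growth gene to a tau or amyloid gene. Arrays share their scaling and a few of them carry much of each r, so the values are descriptions. Smpd3 and Scg3 had the most similar pattern to Gap43, with r of 0.95 and 0.92, Vapb and Raly to Stmn4, with r of 0.95 and 0.94, Lemd2 and Fam217b to App, with r of 0.93 and 0.92, and Llph and Ppp3r1 to Bace1, with r of 0.93 and 0.92. For Atf3 the nearest was Sod3 at 0.92, for Stmn2 Nnmt at 0.92, for Jun RGD1561796 at 0.90 and for Mapt an unnamed probe at 0.90, with Letmd1 next at 0.88. With 13 arrays and 17238 genes, values of this size were reached by 1 or more genes for each of the 8.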

How the data were processed

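The deposited scanner files hold spot intensity from Agilent Feature Extraction 10.5.1.1, per the file headers, background-subtracted and spatially detrended, with probes annotated on rn4. The deposited table of log2 values by the authors has equal column medians of 8.15 and nearly equal sorted values on all 13 arrays, so it was used only as an alternative. Here log2 of the processed intensity was scaled by each array's 75th percentile over all non-control spots, outlier spots were left out and spots of a probe averaged. A probe was kept if, in 1 group or more, all its spots on all arrays exceeded background clearly (20004 of 30367 probes), and the brightest probe stood for a gene (17244 genes, 6 of them with a missing value). These definitions of percentile and background were picked from several tried because their counts matched an earlier processing of these data; the others are given as alternatives. Gene names came from RefSeq accessions for 18006 probes, from current symbols for 2654, from synonyms for 558 and from the file otherwise. Limma 3.58.1 in R 4.3.3 fitted 1 mean per group over all 13 arrays (9 residual degrees of freedom), with Benjamini-Hochberg adjustment over all genes at 0.05. The fit was tested on simulated data. The members and lists were chosen with earlier results of these data known. All members are named with values; of the 4 lists, genes that passed or had one of the 3 smallest p-values in a comparison may be named, and 1 of these is not reported here. Replicate numbers were not used to pair the samples in the main fit. Markers of neurons, astrocytes, microglia, oligodendrocytes, endothelium, meninges, striatum, cortex, Schwann cells and erythrocytes were also scored.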

Additional observations from a re-analysis of the deposited data

Results flagged for a closer look

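Ecel1, an endopeptidase gene induced in injured neurons, lay below its sham mean on all 3 rotational trauma arrays and above it on all 3 percussion trauma arrays. The percussion effect minus the rotational effect was 1.03 (SE 0.46, limma adjusted p = 0.583), which did not pass. Its trauma means were -3.34 (rotational) and -3.61 (percussion), while its sham means were -2.82 and -4.12. Nmnat2 went the opposite way, above its sham mean on all 3 rotational trauma arrays and below it on all 3 percussion trauma arrays. Its percussion effect minus rotational effect was -0.37 (SE 0.11, limma adjusted p = 0.382), which did not pass either. Column order was opposite on the slides, so for both genes opposite signs cannot be told apart from column. The second Stmn2 probe read 3.47 on percussion sham array 1, apart from 3.56, 3.56 and 3.55 on the other sham arrays of that model. The gap was smaller than the median residual SD over all genes, 0.15. How often chance alone sets 1 array of a group of 4 apart in this way was not tested.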

How the results depend on the processing

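For the 8 genes, 888 results of the 4 trauma contrasts under alternative settings gave 0 calls, with a smallest limma adjusted p of 0.205. Signs did change among uncalled values, as for Stmn4, App and Gap43 without 1 array. The mean of growth minus tau and amyloid genes ran from 0.00 to 0.10 in rotational trauma and from -0.27 to -0.01 in percussion trauma when arrays were left out in turn. Between the shams, 1 member was called, and 2 were under quantile normalization, the authors' table, probes above background on all 13 arrays, and a trended robust variance, with 0 to 2 when arrays were left out. Mapt was called there under quantile normalization (0.22, limma adjusted p = 0.0498) and in the authors' table (0.26, limma adjusted p = 0.0204), and Gap43 under 5 of 27 alternatives.

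The settings tried while the scaling was chosen, and 1 further alternative, were added after seeing the data. With the percentile over all probes, over kept probes, or with the looser background rule (0.5 of a probe's spots in place of all), App stayed called between the shams (adjusted p of 0.0239, 0.0257 and 0.0193) and Gap43 did not (0.0856, 0.0797 and 0.053). App was also set against the median of the other members, which was the value of Stmn4 on every array. App minus Stmn4 was 0.66 in percussion sham and 1.02 in rotational sham, a difference of -0.36 with no test. That value compares App with 1 gene, of residual SD 0.28, and not with the members as a group.

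Counts over all genes moved more. The 2 genes called in rotational trauma became 4 with normexp background, 4 in the authors' table, 4 with the percentile over all probes, 0 with quantile normalization, 0 with a slide row block, 6 with only that model's arrays, 5 with a trended robust variance and 356 with no filter on dim probes, and 0 to 12 without 1 array. The 0 genes of percussion trauma became 2979 with no filter and 4 with a slide row block, and 0 to 5 without 1 array. The 0 of the mean effect became 5 with a slide row block and 0 to 21 without 1 array. The 0 of the model difference became 3780 with no filter, 1 with a trended robust variance and 2 with either setting that used the looser background rule, and 0 to 8 without 1 array. The 4090 of the shams became 7623 with no filter and 2579 with a slide row block, and 1869 to 4564 without 1 array. The cause was not tested.

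With the replicate number as a replicate block the rotational count was 1 and that of the mean effect 99, with 0 members called in any trauma contrast. Deviations of same-numbered arrays correlated at 0.11, 0.27 and 0.02 in the rotational model and at 0.28, -0.02 and -0.01 in the percussion model. The sample titles give a replicate number and do not say whether it pairs the samples, so pairing is not known. Groups of 3 or 4 arrays limit what could be detected: intervals of Atf3, Bace1 and Stmn4 stay wide.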
